A study of Mus musculus with 2 samples.

Results

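The Hox genes of the mouse were examined for Tcf1 binding in naive CD8+ T cells. They were taken as every protein-coding gene of the GENCODE vM1 annotation, on mouse build mm9, whose symbol is Hoxa, Hoxb, Hoxc or Hoxd followed by a digit. The rule gave 40 gene records with 39 symbols, because Hoxa3 has 2 overlapping records, out of 22350 protein-coding gene records on the numbered chromosomes and X. A deposited peak was assigned to a Hox gene when its summit, the base with the highest coverage, lay in the gene body or within 20 kb of it. Of 22286 deposited peaks, 3 met this rule. High-confidence peaks were those with p below 1e-05, q below 0.05 and a fold enrichment of 4 or more, and 1 of the 3 was among them.

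Hox genes encode homeodomain transcription factors that give positional identity along the body axis, and within a cluster the genes lie in the order in which they are used from front to rear. In many differentiated cells all or part of a cluster is held silent by Polycomb group proteins, while MLL and its partners keep Hox genes on where they are needed. In blood, Hoxa and Hoxb genes are known for their roles in stem and progenitor cells, and their expression falls as cells differentiate.

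Tcf1 is the HMG-box transcription factor encoded by Tcf7, and the peak list asked where it was bound in WT cells. Tcf1 ChIP-seq was done with a rabbit antiserum against the full-length protein on GFP+ TCRbeta+ CD62Lhi CD44lo-med CD8+ cells sorted from spleen. There was 1 WT library and 1 Tcf1-deficient library, which the authors used as treatment and control of 1 peak call, with 36938606 and 27625250 fragments kept. No comparison had replicates. The series' design text gives hCD2-Cre and Rosa26-lsl-GFP mice with Tcf1 and Lef1 either wild type or both floxed, which would give both groups Cre and the GFP reporter. The control carries the genotype Tcf1-/-Lef1-/- in the labels but is named as Tcf1-deficient in its title, and the study's methods describe Cd4-Cre+ Tcf7 fl/fl mice. Whether the control cells lacked Lef1 as well, and which Cre the groups carried, cannot be told from these sources. Both Cre drivers act in lymphoid cells, so the deletion applies to these cells and not to the whole animal. The mice were on a C57BL/6 background and were young adults, by the methods. Expression was not measured in these libraries, so the silence of the Hox clusters in T cells is background here and not a measurement.

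The 4 clusters are compact. On mm9 they span 106 kb of chromosome 6 for Hoxa, and chr11:96055630-96229570 for Hoxb (174 kb), chr15:102751534-102867274 for Hoxc (116 kb) and chr2:74506367-74603200 for Hoxd (96.8 kb), each from its outermost gene ends. The plus-strand sequences around the summits that bear on the result are shown with the searched sequences in capitals. These are the only high-confidence peak of a Hox gene, the 29 bases around the weaker summit at the start of Hoxa11, and the nearest high-confidence peaks outside Hoxa and Hoxb.
Hoxd3 to Hoxd1, chr2:74587369-74587569: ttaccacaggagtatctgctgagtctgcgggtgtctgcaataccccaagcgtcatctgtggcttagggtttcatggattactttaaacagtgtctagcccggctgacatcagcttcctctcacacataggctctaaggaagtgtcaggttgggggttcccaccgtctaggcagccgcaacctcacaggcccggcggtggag
Hoxa11 start, chr6:52195758-52195786: tgattctccactgcagctgcctCTTTGAa
Hoxa flank, chr6:52065945-52066145: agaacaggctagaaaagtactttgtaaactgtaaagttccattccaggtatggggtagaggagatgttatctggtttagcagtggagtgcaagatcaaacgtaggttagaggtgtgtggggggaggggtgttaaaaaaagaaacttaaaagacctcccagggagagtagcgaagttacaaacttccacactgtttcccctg
Hoxb flank, chr11:96302961-96303161: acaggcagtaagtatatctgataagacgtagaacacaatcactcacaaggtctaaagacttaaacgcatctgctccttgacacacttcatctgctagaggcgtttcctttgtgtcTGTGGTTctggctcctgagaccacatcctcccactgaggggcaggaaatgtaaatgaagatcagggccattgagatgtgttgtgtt

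The only high-confidence Tcf1 peak of a Hox gene lay between Hoxd3 and Hoxd1, at chr2:74587238-74587722, with its summit at 74587469. It was 485 bp wide and its summit fell in an exon of the noncoding gene 6720416L17Rik. The summit was 1.14 kb from the end of the Hoxd3 body, 3.74 kb from the nearest annotated Hoxd3 start site and 13.6 kb from Hoxd1, which together with Hoxd3 were the 2 genes it was assigned to. Hoxd4 was 20.3 kb away and so fell just outside the limit.

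The peak had a pileup near the median and a fold enrichment in the lower part of the range. Its pileup was 46 WT fragments over the summit (Poisson 95% interval 33.7 to 61.4), against a control level of 8.02 fragments, which was 1.48 times the genome-wide floor of 5.42. The fold enrichment, the pileup plus 1 over the control level plus 1, was 5.21, and the counting error of the pileup alone put it between 3.84 and 6.91. This interval reaches below the minimum of 4. Its pileup was close to the median of 44 over the 19038 high-confidence peaks, its fold enrichment was under their median of 6.86 (interquartile range 5.14 to 10.6), and 26.8% of them had a fold enrichment no higher. The control level was above the floor here, as it was in 13.7% of high-confidence peaks. The intervals in this text cover counting error only.

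The other 2 deposited peaks near Hox genes were under the fold minimum. At the start of Hoxa11, a gene of limb, kidney and uterus development, the peak at chr6:52195734-52195931 had a pileup of 21 (13.0 to 32.1), a control level at the floor and a fold enrichment of 3.43 (2.18 to 5.16). Its summit was 0.022 kb from a Hoxa11 start site, in an untranslated exon that overlaps the antisense transcript Hoxa11as. Hoxa10, Hoxa9 and Hoxa13 were within 20 kb of it, at 4.92, 14.7 and 11.9 kb. Hoxa7 was 23.9 kb away and outside. The second was in coding sequence of Evx2, the even-skipped homeobox gene next to Hoxd13, at chr2:74494007-74494239. Its pileup was 19 (11.4 to 29.7) and its fold enrichment 3.12 (1.94 to 4.78). It was 12.2 kb from Hoxd13 and 18.8 kb from Hoxd12, with Hoxd11 outside at 23.2 kb. At the control floor a pileup of 25 was needed to reach the minimum, so both peaks fell short by few fragments. Peaks under the minimum made up 14.3% of the deposited list on these chromosomes.

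**Figure D1:**
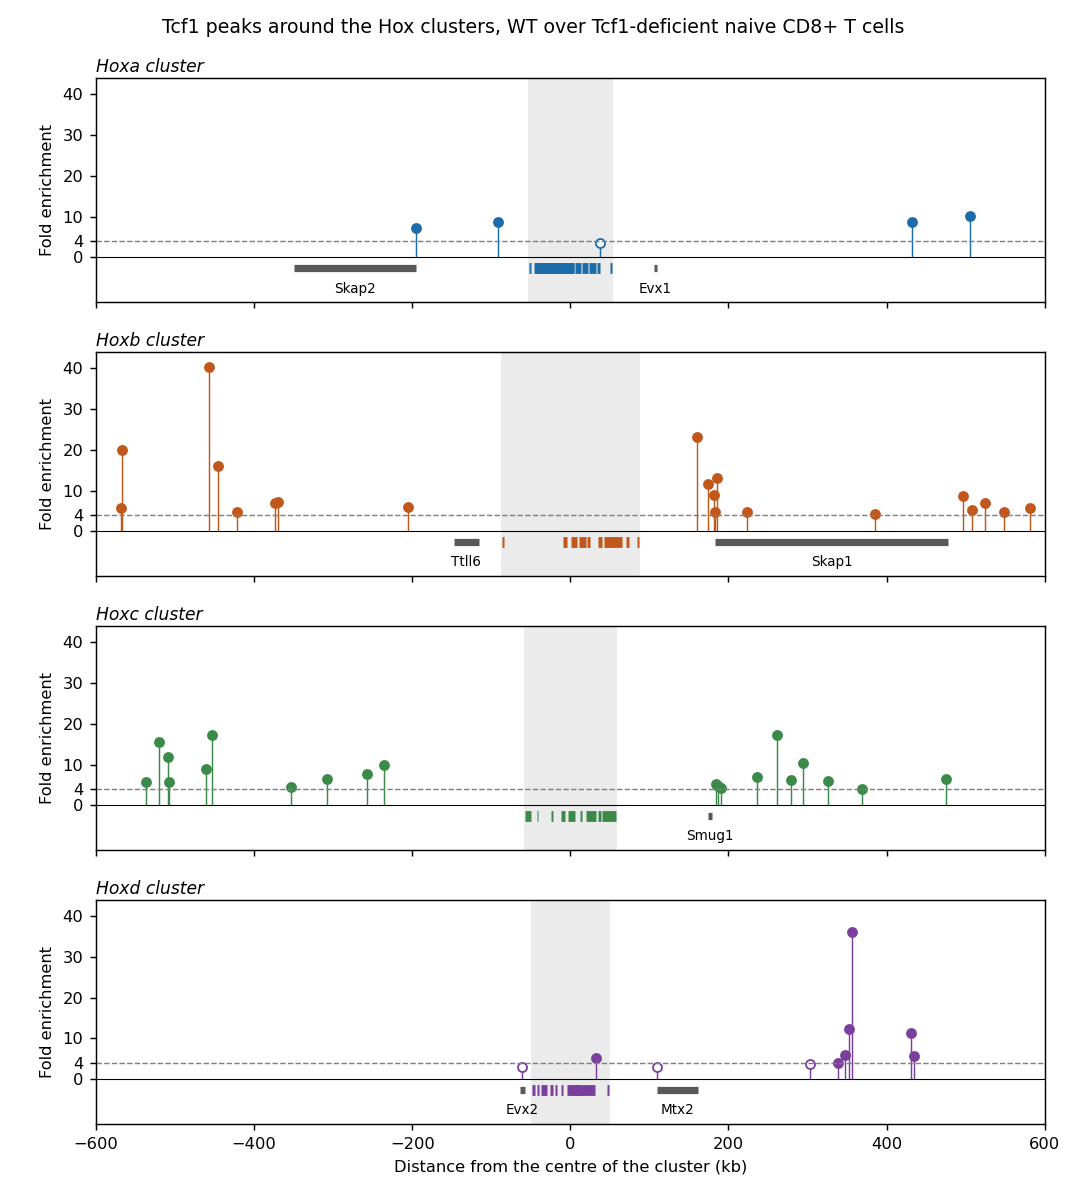
Deposited Tcf1 peaks around the 4 Hox clusters, with the distance of each summit from the cluster's centre in kb on the horizontal axis and the fold enrichment of WT over control on the vertical axis. Filled circles are high-confidence peaks, open circles are peaks under the fold minimum of 4 (dashed line), the grey band is the cluster from its outermost gene ends, coloured blocks are Hox genes and dark grey blocks are neighbouring genes. Within the bands there is 1 filled circle, in Hoxd, while peaks up to a fold enrichment of 40.2 stand in the 500 kb outside.

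The 4 clusters did not look alike in the deposited list, but the counts are small. Hoxb and Hoxc had 0 deposited peaks of any height within 20 kb of a gene. Hoxa had 1, under the minimum, and Hoxd had the high-confidence peak and the Evx2 peak. In high-confidence peaks per Mb of merged gene neighbourhood (bodies plus 20 kb), Hoxd had 7.31 (0.185 to 40.7) over 137 kb. This was 1.01 times the genome mean of 7.21. Hoxa had 0 in 146 kb, which allows up to 20.6 per Mb. Hoxb had 0 in 180 kb, which allows up to 16.7, and Hoxc 0 in 156 kb, which allows up to 19.3. Each of these limits is above the genome mean, so a lower density in any of these clusters on its own was not detectable with regions this short. The ratio of Hoxd to the other clusters pooled had an exact lower bound of 0.0902 and no upper bound, so a difference between clusters could not be shown either.

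Pooled, the Hox neighbourhoods covered 618 kb and held 1 high-confidence peak, 1.62 per Mb (0.0410 to 9.02). This was 0.224 times the genome mean and 0.140 times the mean of 11.6 per Mb over all protein-coding neighbourhoods. At the genome mean 4.46 peaks would lie in a region of this length, inside the Poisson interval of 0.0253 to 5.57 for a count of 1. At the mean of coding neighbourhoods the number would be 7.16, which is outside it. The pooled density was thus below both means, within the interval for the genome and outside it for coding neighbourhoods. Peaks are clustered along the genome, so that such intervals are narrower than the true spread, and neither comparison is a test.

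Between the outermost gene ends, the interiors held 1 high-confidence peak in 492 kb, 2.03 per Mb (0.0515 to 11.3). The first 20 kb on both sides of the clusters held 0 in 160 kb. The first 100 kb held 6 in 800 kb, 7.5 per Mb (2.75 to 16.3), and the first 500 kb held 50 in 4000 kb, 12.5 per Mb (9.28 to 16.5). The interiors were at 0.163 times the density of the 500-kb sides, with an exact 95% interval of 0.00404 to 0.948. This interval, too, is narrower than the true spread. The difference rested on Hoxb and Hoxc, with 0 in 289.7 kb of interior against 40 in 2000 kb of sides (20 per Mb). Hoxa and Hoxd together had 1 in 202 kb of interior, or 4.94 per Mb, against 10 in 2000 kb of sides, or 5 per Mb. The density interval of the pooled interiors overlapped that of the 100-kb sides and also that of the 500-kb sides. No ratio was computed for the 100-kb sides. The Hoxd interior, with its 1 peak in 96.8 kb (10.3 per Mb, 0.261 to 57.5), had a higher density than its own 500-kb sides, within counting error.

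The surroundings differed among clusters. Within 500 kb, Hoxb had 8 high-confidence peaks on its lower-coordinate side and 12 on the other, Hoxc had 10 on each, and Hoxa had 2 on each. Hoxd had 6 on the higher side. On its lower side, beyond Evx2, it had 0, which allows up to 6 per Mb.

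The stretches free of high-confidence summits that hold the clusters were long, 524 kb for Hoxa, 366 kb for Hoxb and 421 kb for Hoxc. In Hoxd the peak split the stretch into 838 kb on the side of Hoxd13 and 306 kb on the side of Hoxd1. The median distance between neighbouring summits was 25.6 kb. Long stretches nevertheless take up much of the genome, since those at least as long as the 5 named here held between 50.3% and 66.8% of its length. They held fewer of its genes, between 21.8% and 34.8% of all protein-coding genes.

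Gene by gene, 2 of 40 Hox records (5%) had a high-confidence summit in the body or within 20 kb, the pair next to the Hoxd peak, against 55.4% of all protein-coding genes. With every deposited peak counted, the number was 8 of 40 (20%), against 58.9%. It was made up of Hoxa9, Hoxa10, Hoxa11 and Hoxa13 and of Hoxd1, Hoxd3, Hoxd12 and Hoxd13. No Hox gene held a high-confidence summit in its body. Genes of a cluster share neighbourhoods and peaks, so they are not independent and no test was made on these shares. Runs of 9 neighbouring protein-coding genes, the size of the smallest clusters, were also counted. Those with no high-confidence peak within 20 kb of any gene made up 11.5% of all such runs, so empty runs were not confined to the Hox clusters. The runs overlap, so a long empty stretch of genes counts many times, and they were not matched to the Hox genes by kind of promoter. The share does not say how rare an empty cluster is.

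At promoters, 0 of 40 Hox records had a high-confidence summit within 1 kb of a start site, against 32.8% of all protein-coding genes. Hox start sites were often CpG-rich, a kind of promoter at which Tcf1 peaks were common. By GC content of at least 55% and an observed-to-expected CpG ratio of at least 0.6 within 500 bp, 23 of 40 Hox records (57.5%) had a CpG-rich start site, against 43.9% of all coding genes. None of these 23 had a promoter peak, against 56.6% of all genes with such a start site. Of the same 23, 2 had a summit within 20 kb, against 76.0% of genes with a CpG-rich start site. This background and that of runs of genes were added after the values were seen. The Hox interiors as a whole had a GC content of 49.3% and 24.4 CpG per kb, against 41.8% and 8.34 CpG per kb of the genome, and none of their bases was undetermined in the reference.

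The median Hox record was 103 kb from the nearest high-confidence summit, and the median protein-coding gene 11.6 kb, with 24.5% of coding genes at least as far as the median Hox record. By cluster the medians were 87.5 kb in Hoxa (up to 142), 128 kb in Hoxb (73.5 to 165), 178 kb in Hoxc (127 to 206) and 49.2 kb in Hoxd (1.14 to 77.8). The ranges of Hoxa, Hoxb and Hoxc overlapped one another, and that of Hoxd lay below that of Hoxb in all but its highest value.

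In Hoxa the distance grew with gene number, from 46.3 kb at Hoxa2 to 107 kb at Hoxa9, a factor of blood progenitors, and 142 kb at Hoxa13, since the nearest peak of all of them lay on the lower-coordinate side of the cluster. In Hoxd, too, genes at the Hoxd13 end were farthest, with 49.2 kb at Hoxd9 and 77.8 kb at Hoxd13. In Hoxb the distance was shortest at Hoxb1 (73.5 kb) and longest at Hoxb9 (165 kb), and Hoxb4, which is known for expanding blood stem cells, was at 120.1 kb. The farthest Hox gene was Hoxc11 at 206 kb, and 17.1% of coding genes were at least as far. These distances reflect the 1 or 2 peaks nearest to each cluster, so that members of a cluster repeat the same measurement.

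**Figure D2:**
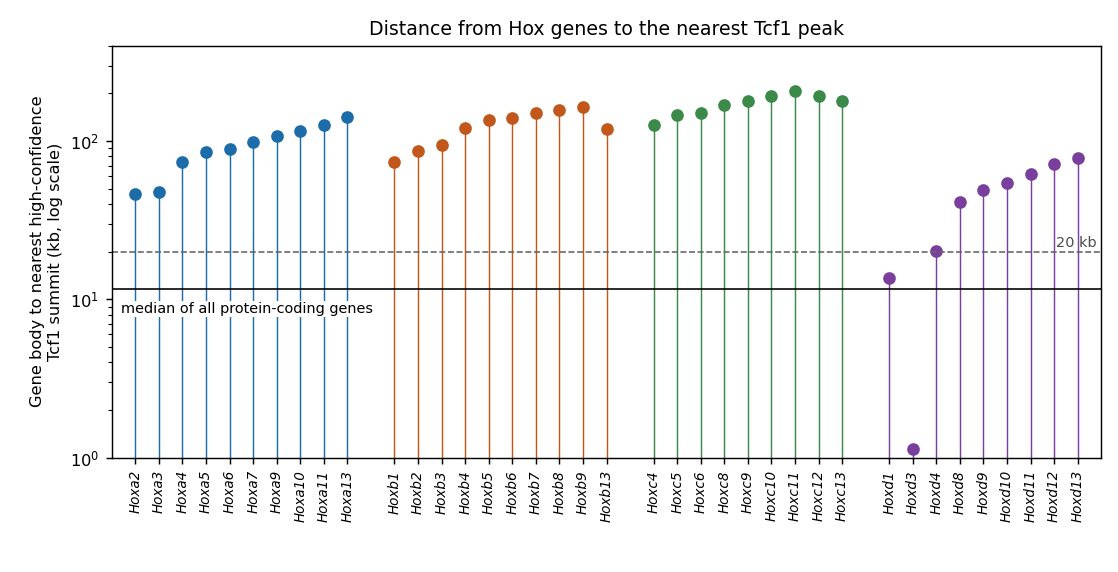
Distance in kb, on a log axis, from the body of each Hox gene shown to the nearest high-confidence Tcf1 summit, coloured by cluster and ordered by gene number, with the first of the 2 Hoxa3 records shown. The solid line is the median of all protein-coding genes (11.6 kb) and the dashed line the 20-kb limit. Hoxd3 at 1.14 kb and Hoxd1 at 13.6 kb are the only points under the dashed line.

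The nearest peaks outside the clusters belonged to neighbouring genes or to intergenic DNA. On the lower-coordinate side of Hoxa, an intergenic peak at chr6:52065854-52066340 (the Hoxa flank sequence above) had a pileup of 55 and a fold enrichment of 8.73 (6.61 to 11.3). Farther out on the same side, Skap2, a cytosolic adaptor of leukocytes, had a peak 0.171 kb from its start site with a fold enrichment of 7.17. Evx1, the homeobox gene beyond Hoxa13, had none within 20 kb and was 197 kb from the nearest.

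Within 100 kb of a cluster, the peak with the highest fold enrichment was beside Hoxb. Beyond Hoxb1, at 73.5 kb, a peak at chr11:96302535-96303385 (the Hoxb flank sequence above) had a pileup of 147 (124 to 173) and a fold enrichment of 23.1 (19.5 to 27.1), with the control at its floor. It lay 22.8 kb before the start of Skap1, the T cell adaptor that links the antigen receptor to integrin activation. Skap1 itself had 7 high-confidence peaks within 20 kb, with fold enrichments up to 13.1, including one of 4.67 at its start site. The first 100 kb on this side of Hoxb held 5 peaks, or 50 per Mb (16.2 to 117), next to a cluster that held none. On the other side the first peak, with a fold enrichment of 5.92, was near the start of Atp5g1, a subunit of mitochondrial ATP synthase, at 118 kb from Hoxb13. Ttll6, the nearest gene there, had none within 20 kb.

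Beyond Hoxc4, the uracil-DNA glycosylase gene Smug1 had 3 peaks, with fold enrichments of 5.30, 4.83 and 4.36, at 127 to 132 kb from the cluster. On the Hoxc13 side the first peak was 178 kb away, with a fold enrichment of 9.82. Around Hoxd, Evx2 and Mtx2, which encodes a mitochondrial outer-membrane protein, had no high-confidence peak within 20 kb. Mtx2 had a deposited peak at its edge with a pileup of 19 and a fold enrichment of 3.12. The strongest peak within 500 kb of Hoxd had a pileup of 230 and a fold enrichment of 36.0, at 308 kb from the cluster. Every high-confidence peak in the 500 kb on this side was at least 289.9 kb away.

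Summit sequences were searched on both strands, within 100 bp, for 4 cores of 7 letters. The Tcf/Lef core ATCAAAG was in 10.2% of all high-confidence summit windows and in 3.31% of windows 2 kb away, and its reversal GAAACTA was in 2.40% and 2.51%. The Hoxd peak held none of ATCAAAG, the ETS core CGGAAGT (6.93% of all summits), the Runx core TGTGGTT (15.5%) or the CTCF core AGGGGGC (7.35%). Only exact letters were searched, so close variants were not counted. The Hoxd window as printed reads AGGAAGT, which differs from the ETS core in its first letter. It also reads TACCACA, the minus-strand form of TGTGGTA, which differs from the Runx core in its last letter. How often such variants occur at other summits was not counted. The Hoxa11 and Evx2 windows and the Hoxa flank held none either. The Hoxb flank peak held TGTGGTT, in capitals above. Of the 50 high-confidence peaks within 500 kb outside the clusters, 6 held ATCAAAG, among them the peak with a fold enrichment of 36.0 beyond Hoxd, and 5 held AGGGGGC, among them the first peak on the Hoxc13 side. TGTGGTT was in 3 of the 50, CGGAAGT in 2 and the reversed core GAAACTA in 2.

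The shorter Tcf/Lef core TCAAAG, which is contained in ATCAAAG, was present in 26.4% of all high-confidence windows. It was in none of the Hoxd, Evx2 and flank windows. It occurred once near the Hoxa11 summit, 11 bp from it and on the minus strand, where it reads CTTTGA on the plus strand as printed above. In all, 8.70% of high-confidence summits had it within 14 bp. A match of letters is a description and not a bound site.

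The Hox neighbourhoods held 96 copies of ATCAAAG, of which 25 were in Hoxa, 33 in Hoxb, 17 in Hoxc and 21 in Hoxd. This was 155 per Mb, against 209 in the genome. The reversed core was lower as well, at 125 per Mb against 169, and so was the Runx core, at 196 against 241. The ETS core was at 30.7 per Mb against 18.7. With 1 high-confidence summit in these neighbourhoods, and no ATCAAAG at it, the copies could not be compared for binding. AGGGGGC was dense, with 156 copies or 252 per Mb, against 79.5 in the genome. This core is almost all G and C, and the neighbourhoods had a GC content of 48.2%, against 41.8% in the genome. No reversal was counted for it, and the part of base composition in its density was not tested.

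Other genes of the Hox system were compared by lists. Of 35 chromatin regulators known to act on Hox clusters, 32 (91.4%) had a high-confidence peak within 20 kb and 26 (74.3%) at a promoter. The shares of all coding genes were lower, at 55.4% and 32.8%. Those of genes with a CpG-rich start site were nearer, at 76.0% and 56.6%, and the list was not matched for such start sites. Neighbouring members can also share a peak. Among the Polycomb genes, Ezh2, the methyltransferase of repressive complex 2, had a promoter peak and 2 peaks in all, the higher with a fold enrichment of 13.9. Phc1, a subunit of repressive complex 1, reached 22.4, and Jarid2, a cofactor of the methyltransferase, had 7 peaks and reached 22.1. These genes were picked with their values known. Among the other Polycomb genes with a peak, the highest fold enrichment of a gene ranged from 4.52 at Phf19 to 42.5 at Pcgf1. On the activating side, Men1, which encodes the MLL partner menin, reached 16.4 and Mllt1, of the elongation complex, reached 26.8. The 3 without a peak were Kmt2a, which encodes MLL itself and was 30.4 kb from the nearest summit, Phc3 at 26.2 kb, and the demethylase gene Kdm6a at 590.3 kb. These regulators serve many loci, and nothing in these counts ties their peaks to the Hox clusters.

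Among the TALE homeodomain cofactors, which bind DNA together with Hox proteins, 4 of 9 (44.4%) had a peak within 20 kb, a share near the 55.4% of all coding genes. Pbx2 reached a fold enrichment of 26.0, Meis3 13.3, Pbx4 12.6 and Pknox1 10.6, the last pair at their promoters. Meis1 and Meis2, by contrast, were 819 and 1055 kb from the nearest summit. Of the ParaHox and Cdx genes, 2 of 6 (33.3%, against the same 55.4%) had a peak, Cdx2 with a fold enrichment of 22.5 and Gsx2 with 6.70, and none had one at a promoter.

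The other homeobox genes of development also had few peaks. Of 95, 20 (21.1%) had a high-confidence peak within 20 kb and 1 (1.05%) at a promoter, against 55.4% and 32.8% of all coding genes, and their median distance to a summit was 76.9 kb, against 107 kb for the 39 Hox symbols. The promoter peak was at Dlx1, with a fold enrichment of 5.98. The highest peaks were near Lbx2 (42.5, a peak also counted for the Polycomb gene Pcgf1), Prrx2 (18.4) and Vsx1 (18.2). Gsx1 and Gsx2 are in both of the last lists. Of the 39 Hox symbols 2 (5.13%) had a peak, next to 46 of 1113 olfactory receptor genes (4.13%), whose median distance was 378 kb. This family, expressed mainly in olfactory sensory neurons, was added after the values were seen, and its expression was not measured here. At promoters the shares were 0 for Hox genes and 0.270% for olfactory receptor genes. These lists differ in size and in gene spacing, and their shares are given as a description.

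**Figure D3:**
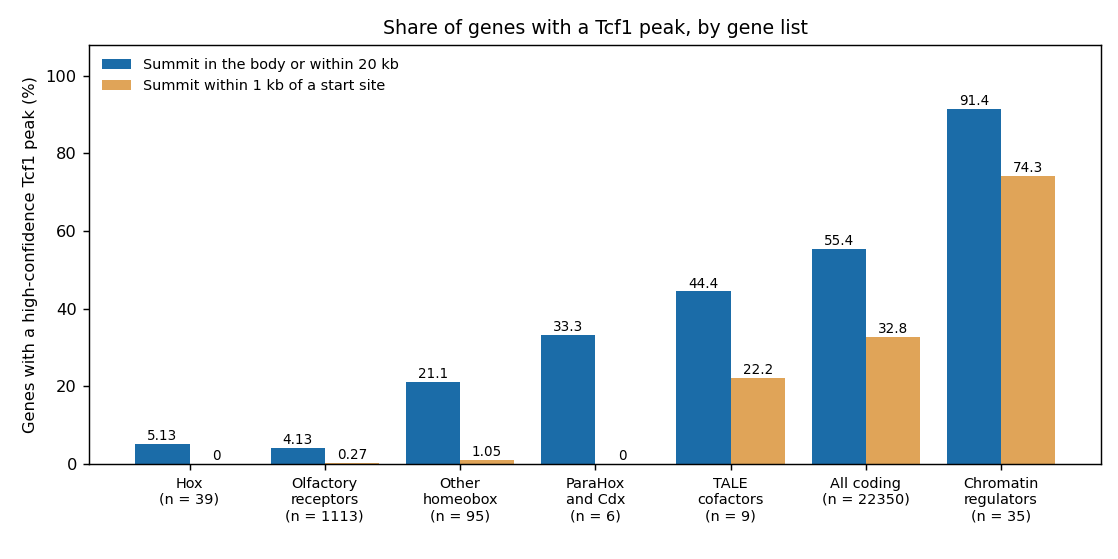
Percent of the genes of each list with a high-confidence Tcf1 summit in the body or within 20 kb (blue) and within 1 kb of a start site (ochre), with the number of genes under each name; bars start at 0. Hox genes (5.13% and 0) stand next to olfactory receptor genes and below all coding genes (55.4% and 32.8%), and chromatin regulators (91.4% and 74.3%) stand above them.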

How the data were processed

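Reads were aligned by the authors to mm9 with Bowtie2 2.2.5, and peaks were called with MACS2 2.1.1.20160309 in paired-end mode, with the WT library as treatment, the Tcf1-deficient library as control, and 1 fragment per position kept. The deposited pileup is an unscaled coverage signal of WT fragments at the summit, since a Poisson p computed from it matched the deposited p within 0.01 in 100% of the peaks for which this was possible. The deposited fold enrichment is a ratio, pileup plus 1 over local control level plus 1, from which the control level was computed back. The deposited −log10 p and −log10 q compare the 2 libraries and not the genotypes. Other deposited columns give 1-based positions and widths.

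Summits were joined to GENCODE vM1 genes and the NCBIM37 (mm9) genome with Python 3.11.15, numpy 2.4.6, pandas 2.3.3 and scipy 1.17.1. Counts have exact Poisson 95% intervals, and a count of 0 is given the limit that 3 counts allow. The counting was tested on simulated summits. There was 1 library per group, so no p-value is given, and the intervals describe counting error and are not tests of a condition. Depth limits each fold enrichment through the pileup and the control floor.

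Members, lists and sequences searched were chosen with earlier results of these data known. The genes named were the members, the first neighbours of each cluster, and fixed lists of cofactors, ParaHox genes, chromatin regulators and other homeobox genes with their strongest peaks. Ezh2, Phc1, Jarid2, Phf19, Men1, Dlx1 and the genes of the lists without a peak were picked after their values were seen. Alternatives changed the fold and q limits, the neighbourhood, the promoter width, the background and the sequence window. The values of a few single genes are not reported here; those genes remain in the counts.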

Additional observations from a re-analysis of the deposited data

How the results depend on the processing

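Across 16 settings, 52 of 65 recomputed values stayed within the interval, or for counts within 1.5 times, of the reported value, and the others turned on the few peaks involved. Many of these intervals come from counts of 0 or 1 and are wide, so staying within one says little about stability. Without a fold minimum, the Hoxa density went from 0 to 6.87 per Mb and the Hoxd density from 7.31 to 14.6. Both counted as within. Hoxb and Hoxc had no deposited peak within 20 kb of a gene, so a change of the fold minimum could not move their densities. With a fold minimum of 8, or with gene bodies only, the Hox genes had 0 high-confidence peaks, a density ratio to the genome of 0 and 0% of genes with a peak, and with the former no peak was left for fold enrichment or sequence. Without a fold minimum there were 3 peaks, 20% of genes had one, and the median fold enrichment was 3.43. With 50 kb in place of 20 kb there were 2 peaks and 20% of genes had one. The density ratio to the genome stayed below 1 in each setting in which it was recomputed, at most 0.576 without a fold minimum. The promoter share stayed at 0 under each planned promoter setting except without a fold minimum, where the Hoxa11 peak made it 2.5%. No paired analysis was possible because each group had 1 library. With 1 library per group, replicate error is unknown, and with 1 peak in 618 kb the counts limit any comparison between clusters.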

Other observations

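The Hox clusters also hold microRNA genes, which the choice of protein-coding genes left out. None of the 6 had a high-confidence Tcf1 summit within 20 kb, against 30.5% of the 1576 microRNA genes of the annotation, and with 6 genes in shared clusters nothing is read from this count. Mir10b, inside the annotated Hoxd4 body, was nearest, at 23.3 kb, and Mir10a in Hoxb was at 124 kb. Mir196b in Hoxa was at 114 kb, although the weak Hoxa11 peak lay 15.6 kb from it. Mir196a-1 in Hoxb and Mir196a-2 in Hoxc were at 176 and 189.9 kb, and Mir615 in Hoxc was at 148 kb. The mature sequences, from RefSeq (GRCm38.p6), are shown with the seed in capitals because they fall into families by seed across clusters, with Mir10a and Mir10b sharing ACCCUGU and the Mir196 genes sharing AGGUAGU.
miR-10a-5p: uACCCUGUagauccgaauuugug
miR-10b-5p: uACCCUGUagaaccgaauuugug
miR-196a-5p: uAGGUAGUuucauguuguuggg
miR-196b-5p: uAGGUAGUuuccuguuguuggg
miR-615-5p: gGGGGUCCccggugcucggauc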
